A study of Rattus norvegicus with 6 samples.

Results

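The Hedgehog pathway was followed in skeletal muscle of newborn rats through 10 genes, selected on their symbol, of which 6 had a row in the table of 26419 rows. The 10 were the ligands *Shh*, *Ihh* and *Dhh*, the receptor *Ptch1*, its relative *Ptchd1*, the transducer *Smo*, the transcription factor *Gli1* and the inhibitors *Sufu*, *Kctd21* and *Kctd11*. *Kctd21* and *Ptchd1* were chosen by their lower signal in LBW pups in the same comparison, so that their values are given as a description with no test. The other 4 genes with a row, *Shh*, *Ptch1*, *Smo* and *Sufu*, were chosen as parts of the pathway. *Ihh*, *Dhh*, *Gli1* and *Kctd11* had no matched row and were not analysed here. The question was whether the ligands, receptors, inhibitors and targets of the pathway were also lower in LBW pups.

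The pups were 1-day-old male Wistar rats, 3 of lower birth weight (LBW, percentiles 5 to 25 for birth weight) and 3 of average birth weight (ABW). The labels of the ABW arrays give percentiles 25 to 75 and the protocol gives 50 to 75. Total RNA of skeletal muscle from each pup was labelled with Cy3 and hybridized to 1 NimbleGen array. Per the study's methods the muscle was soleus pooled with gastrocnemius. The labels name no transgene or agent, and they call the 3 pups of a group biological replicates without giving their litters. All levels below are log2 array signals and all differences are LBW minus ABW on that scale. Signals of different genes come from different probes, so that the brightest gene of a list need not be the most abundant.

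Hedgehog ligands are secreted proteins that bind Patched and so release Smoothened, which then acts at the primary cilium. Without a ligand, Sufu and a chain of kinases hold the Gli transcription factors inactive or turn them into repressors, and active Gli proteins switch on genes such as *Ptch1* and *Gli1* themselves. In muscle the pathway is known for inducing myogenic genes in the early somite and, later, for restraining the formation of fat cells between the fibres.

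The arrays were set against their labels first. Of 14 markers of skeletal muscle 10 had a row, and 0 of these 10 were called by limma at an unadjusted p under 0.05 with a fold change of at least 1.5, with 0 at an unadjusted p under 0.05 alone and 0 called at the same threshold by the methods' t-test, the test with equal variances that the study names for its data. Over the whole table, 1123 of 26298 genes (4.27%) passed that threshold. *Acta1*, the skeletal muscle actin and the brightest of the 10, lay between 15.15 and 15.41 in all 6 pups. On the first principal component, which held 43.1% of the variance between arrays, LBW 1 and LBW 3 lay at 33.9 and 37.8, LBW 2 at -0.338 and the ABW pups at -11.9, -28.3 and -31.2. LBW 2 thus stood apart from the other LBW pups. The deposited values, from 4.58 to 15.49, include no measure of background, and a dim row therefore cannot be told from an unexpressed gene.

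*Kctd21* (XM_001064087) encodes a KCTD protein that, with the ubiquitin ligase scaffold Cul3, is known to dampen Hedgehog signaling by removing the deacetylase Hdac1, which activates Gli1. In the order of their numbers, the LBW pups gave signals of 6.73, 7.40 and 8.57. The ABW pups gave 9.13, 9.81 and 9.62. Every LBW pup lay below every ABW pup, and the LBW pups were spread far more widely, with LBW 3 close to the lowest ABW pup. The LBW mean was 7.57 ± 0.93 (SD, n = 3) and the ABW mean 9.52 ± 0.35 (SD, n = 3), a difference of -1.96 (SE 0.458) or a fold change of 0.258. Its spread within groups exceeded that of 98.7% of all genes. Leaving out 1 pup at a time moved the difference between -2.46, without LBW 3, and -1.54, without LBW 1, and it was -1.87 without LBW 2.

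*Ptchd1* (XM_001056385) encodes a membrane protein with a patched domain, studied mainly in the brain. The signals of LBW 1 to LBW 3 were 5.72, 5.93 and 5.44, and those of ABW 1 to ABW 3 were 5.91, 7.72 and 7.13. The groups overlapped: ABW 1 lay below LBW 2, while ABW 2 and ABW 3 stood well above the other 4 pups. The LBW mean was 5.70 ± 0.24 (SD, n = 3) and the ABW mean 6.92 ± 0.92 (SD, n = 3), a difference of -1.22 (SE 0.439) or a fold change of 0.429. The signals of the 3 LBW pups and of ABW 1 lay under 6.21, the level that bounds the dimmest 25% of genes, so that they may not be measured above background and the fold change is only that of the deposited signals. Without ABW 2 the difference was -0.82, without ABW 1 it was -1.72, and without LBW 2 it was -1.34. The primer list of the study's methods names *Ptch1* where its text names *Ptchd1*; the array has a separate row for each.

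**Figure D1:**
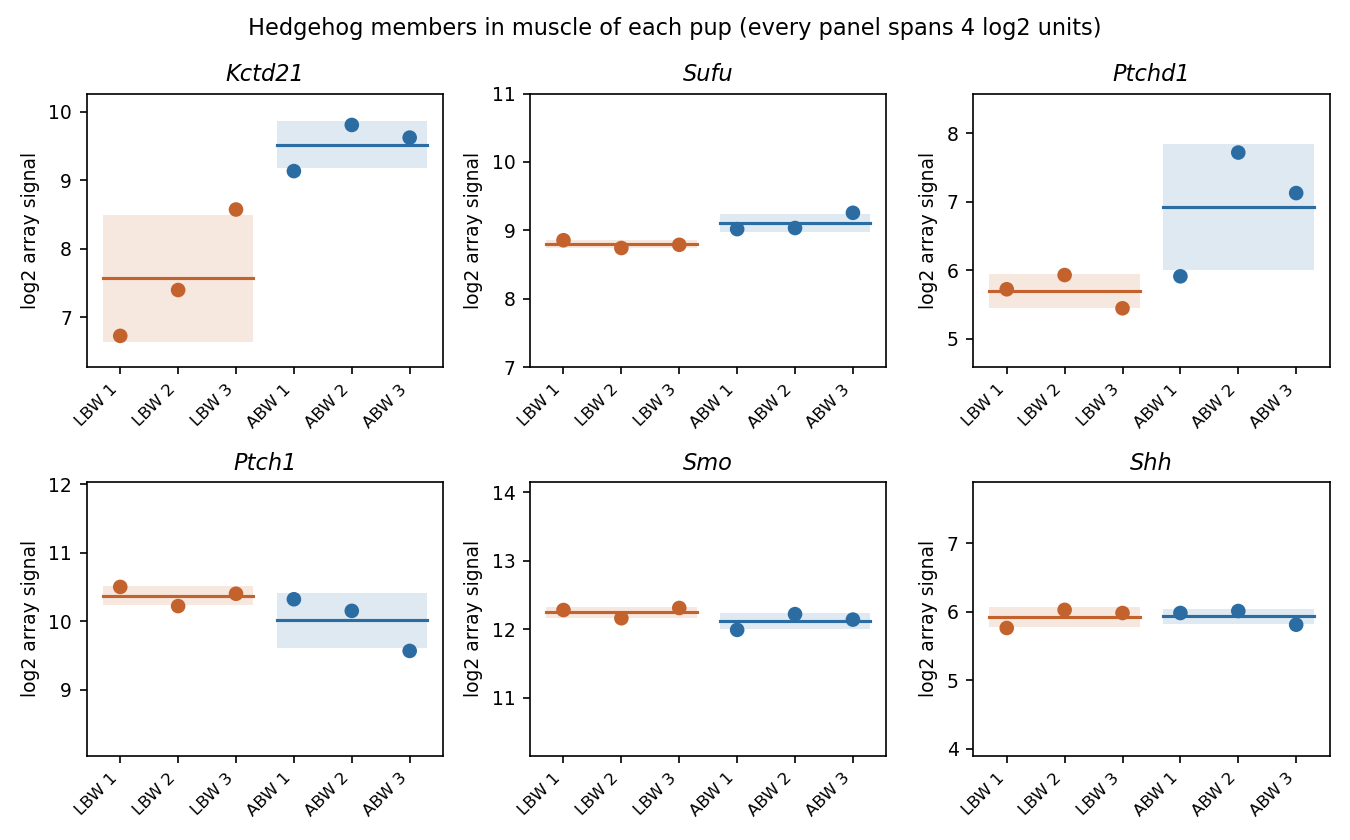
Log2 array signal (vertical axis) of the 6 Hedgehog genes with a row in each of the 6 pups (horizontal axis, LBW orange and ABW blue), with the group mean as a line and 1 SD to either side as a shaded band; every panel spans the same number of log2 units, but levels are not comparable between genes. *Kctd21* is lower in all 3 LBW pups with a wide spread among them, *Ptchd1* is high in ABW 2 and ABW 3 only, *Sufu* is separated by a narrow gap, and *Ptch1*, *Smo* and *Shh* overlap.

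Of the 4 genes that were not chosen for a lower signal, 0 were called by limma, against 4.27% of all genes, and 0 by the methods' t-test. One gene, *Sufu*, had an unadjusted p under 0.05 by limma, which 3249 of all 26298 genes (12.4%) reached. *Sufu* was also the 1 gene of the 4 whose groups did not overlap, as held for 4577 genes (17.4%). After Benjamini-Hochberg adjustment 0 of all genes passed 0.05 by limma or by the methods' t-test, and the smallest adjusted p by limma was 0.216.

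*Shh* (NM_017221), the ligand Sonic hedgehog, was at 5.76, 6.03 and 5.98 in LBW 1 to LBW 3 and at 5.98, 6.01 and 5.81 in ABW 1 to ABW 3. The groups overlapped fully, with the lowest value in LBW 1 and the highest in LBW 2. The difference was -0.01 (SE 0.110; 95% interval -0.27 to 0.25; adjusted p = 0.980 by limma), and an exact 2-sided permutation test gave p = 0.9. Its level is among the dimmest 25% of genes, those at or under 6.21 on average, so that it may not be measured above background.

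*Ptch1* (NM_053566), the Hedgehog receptor and itself a target of Gli proteins, was at 10.50, 10.22 and 10.40 in LBW 1 to LBW 3. In ABW 1 to ABW 3 it was at 10.32, 10.15 and 9.57. The values of 5 pups ran into each other and ABW 3 was low. The difference was 0.36 (SE 0.204; 95% interval -0.13 to 0.85; adjusted p = 0.525 by limma; exact 2-sided permutation p = 0.2), and it was 0.14 without ABW 3. Without ABW 1 it was 0.51, at an unadjusted p of 0.0457 by limma and short of 1.5-fold.

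*Smo* (NM_012807) encodes Smoothened, the membrane protein that carries the signal once Patched is bound. It was at 12.28, 12.16 and 12.31 in LBW 1 to LBW 3 and at 11.99, 12.22 and 12.14 in ABW 1 to ABW 3. LBW 2 lay within the ABW values, so that the groups overlapped. The difference was 0.13 (SE 0.0992; 95% interval -0.11 to 0.37; adjusted p = 0.637 by limma; exact 2-sided permutation p = 0.2), and it was 0.07 without ABW 1.

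*Sufu* (NM_001024899), which binds Gli proteins and keeps them out of the nucleus, was at 8.86, 8.74 and 8.79 in LBW 1 to LBW 3. It was at 9.02, 9.04 and 9.26 in ABW 1 to ABW 3. All 3 LBW pups lay below all 3 ABW pups, by a small margin between LBW 1 and ABW 1. The means were 8.80 ± 0.06 (SD, n = 3) and 9.10 ± 0.13 (SD, n = 3). The difference was -0.31 (SE 0.0992; 95% interval -0.55 to -0.07), a fold change of 0.808, which is short of the 1.5-fold criterion. By limma the unadjusted p was 0.0192 and the adjusted p 0.324. The exact 2-sided permutation test gave p = 0.1, the smallest that 3 against 3 pups allow. The unadjusted p by limma was 0.0979 with an intensity trend in the variance, 0.0572 without LBW 2 and 0.0575 without ABW 3.

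The 95% intervals of these 4 genes can be set against a 1.5-fold change, which is 0.585 on the log2 scale. In none of the 4 genes, *Shh*, *Ptch1*, *Smo* and *Sufu*, did the interval reach down to a 1.5-fold lower signal in LBW pups, as held for 21248 of all 26298 genes. For 3 of the 4 the whole interval lay within 1.5-fold in both directions, the exception being *Ptch1*, whose upper bound was 0.85. *Shh* is in both counts, but its signal may not be measured above background, so that its interval need not limit a change in expression. Across all genes 66.7% of intervals lay within those bounds, and the median interval was 0.618 wide.

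Promoter windows of the genome build GRCr8 from RefSeq ran from 250 bases before to 50 after each annotated start. They were searched for the Gli consensus GACCACCCA and its reverse complement TGGGTGGTC, which is the consensus on the other strand. Of the 10 genes 7 had a window, and 1 of these, *Ptch1*, held the letters. Of 68 other pathway genes with a window 1 did, *Ulk3*, a kinase of Gli proteins. Of all 33469 windows 129 did (0.385%). The window of *Ptch1* is shown because this receptor gene is the textbook target of Gli proteins, beside those of the pair with the lower signals, in which these letters were found on neither strand. The annotated start of *Kctd21* lies at the letters ATG, so that its window may end in coding sequence and need not hold the promoter. The capitals mark the match, at position -172 from the annotated start and read as the reverse complement of the consensus. The windows are on the + strand at chr17:1555321-1555620 for *Ptch1*, chr1:161075620-161075919 for *Kctd21* and chrX:43496657-43496956 for *Ptchd1*. A match describes the letters of a window and is no evidence of binding.
Ptch1: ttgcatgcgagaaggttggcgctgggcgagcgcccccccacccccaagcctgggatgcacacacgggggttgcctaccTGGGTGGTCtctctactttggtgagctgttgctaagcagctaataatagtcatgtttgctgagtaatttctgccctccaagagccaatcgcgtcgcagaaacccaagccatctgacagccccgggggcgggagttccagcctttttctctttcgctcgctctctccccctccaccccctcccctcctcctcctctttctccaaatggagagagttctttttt
Kctd21: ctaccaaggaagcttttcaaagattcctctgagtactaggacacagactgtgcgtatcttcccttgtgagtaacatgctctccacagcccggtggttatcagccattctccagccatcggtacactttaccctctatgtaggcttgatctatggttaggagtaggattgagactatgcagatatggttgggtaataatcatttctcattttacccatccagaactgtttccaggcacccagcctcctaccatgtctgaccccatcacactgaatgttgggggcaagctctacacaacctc
Ptchd1: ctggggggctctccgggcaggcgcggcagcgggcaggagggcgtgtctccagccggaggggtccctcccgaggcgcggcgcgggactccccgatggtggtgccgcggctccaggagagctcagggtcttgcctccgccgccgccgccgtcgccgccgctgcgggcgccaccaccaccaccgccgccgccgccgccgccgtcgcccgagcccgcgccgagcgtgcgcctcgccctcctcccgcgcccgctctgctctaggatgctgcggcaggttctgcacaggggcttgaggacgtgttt

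Beyond these genes, a list of 91 other genes of the pathway was read from the same comparison, and 36 of them had a row. By limma 1 of the 36 was called higher in LBW pups and 0 lower, against 2.38% and 1.89% of all genes, and the methods' t-test called the same number. Of the 36, 4 had an unadjusted p under 0.05, 14 differences were above 0 and 22 below, and 6 genes did not overlap between the groups, beside 12.4% and 17.4% of all genes for the first and the last of these counts. Neither stood above that background. The median difference was -0.06, beside -0.02 over all genes. For 27 of the 36 (75%) the interval lay within 1.5-fold in both directions, beside the 66.7% of all genes.

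Of the co-receptors, 3 of 8 had a row and 0 were called (0 at an unadjusted p under 0.05 by limma, 0 by the methods' t-test). *Gpc3*, a glypican that competes for Hedgehog ligands, was at 14.40, 14.31 and 14.09 in LBW and 14.25, 14.33 and 14.45 in ABW pups, a difference of -0.08 (SE 0.113). *Cdon*, a co-receptor that promotes ligand binding and is known in myoblast differentiation, differed by -0.08 (SE 0.183). The transducers next to Smoothened had 3 of 7 genes with a row, and 0 were called, with 0 at an unadjusted p under 0.05 by limma and 0 by the methods' t-test. *Arrb1*, an arrestin, differed by -0.28 (SE 0.140; -0.42 without LBW 3, where the unadjusted p by limma was 0.00831) and *Grk2*, the kinase that phosphorylates Smoothened, by 0.11 (SE 0.150), and both overlapped between the groups. None of 6 genes for ligand release had a row.

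Of 22 genes that control Gli proteins, 11 had a row, 0 were called and 0 had an unadjusted p under 0.05 by limma, with 0 called by the methods' t-test. *Numb* and *Itch*, an adaptor and a ubiquitin ligase that together degrade Gli1, differed by -0.28 (SE 0.173) and -0.19 (SE 0.113). *Numb* was at -0.17 without LBW 1 and -0.46 without LBW 3 (unadjusted p = 0.0100 by limma, short of 1.5-fold), and *Itch* at -0.10 without ABW 3. The kinases *Gsk3b* and *Csnk1a1*, which mark Gli proteins for processing, differed by 0.09 (SE 0.0796) and 0.04 (SE 0.0886). The groups of these 4 genes overlapped. *Hdac1*, the deacetylase that KCTD proteins are known to target, was named after its values were seen. It was at 12.52, 12.49 and 12.42 in LBW 1 to LBW 3 and at 12.59, 12.63 and 12.73 in ABW 1 to ABW 3, all LBW pups below all ABW pups, with a difference of -0.17 (SE 0.0838; adjusted p = 0.463 by limma).

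**Figure D2:**
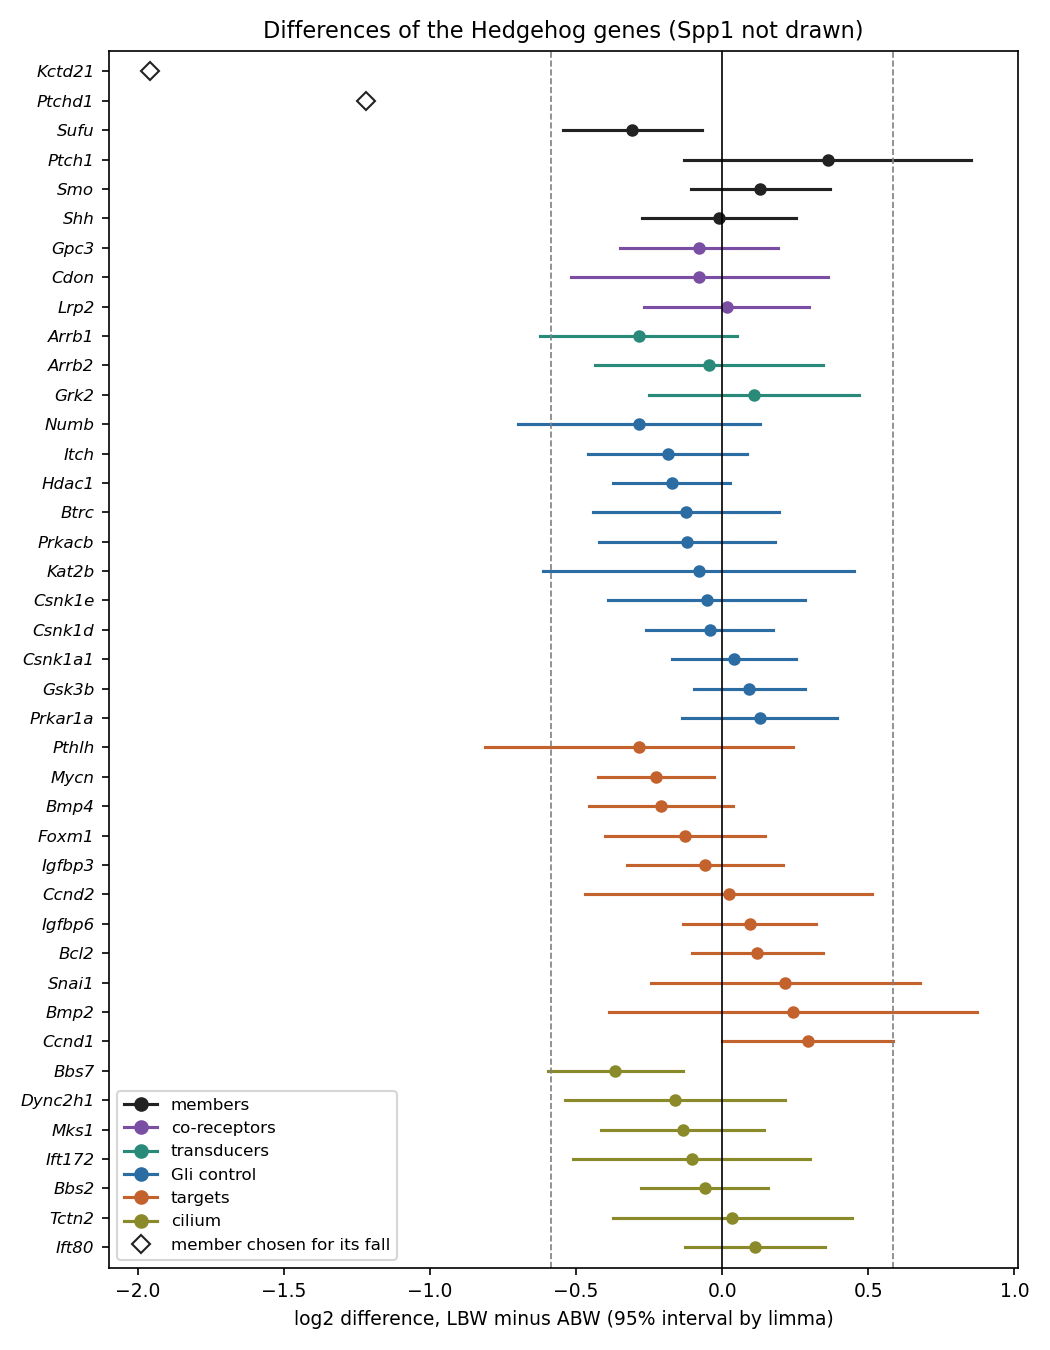
Log2 difference, LBW minus ABW (horizontal axis), of the Hedgehog genes with a row (vertical axis), coloured by role; points are the differences, bars the 95% intervals by limma, open diamonds the 2 genes chosen for a lower signal, and dashed lines a 1.5-fold change. *Kctd21* (-1.96) and *Ptchd1* (-1.22) lie beyond the dashed line, while all other points drawn lie between -0.37 and 0.36; *Spp1* (5.02) is outside the drawn range.

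Of 23 target genes 12 had a row, and 1, *Spp1*, was called. At an unadjusted p under 0.05 by limma there were 3 of the 12, *Spp1*, *Ccnd1* and *Mycn*, beside 12.4% of all genes, and 4 did not overlap between the groups, these and *Bmp4*, named after its values were seen, beside 17.4%. The 4 did not go one way, *Spp1* and *Ccnd1* being higher and *Mycn* and *Bmp4* lower in LBW pups. *Spp1* encodes osteopontin, a secreted matrix protein of bone that is also counted among Gli targets. The values of LBW 1 to LBW 3 were 13.03, 9.78 and 14.24, and those of ABW 1 to ABW 3 were 7.27, 7.52 and 7.18. Every LBW pup lay above every ABW pup, LBW 2 the least. The difference was 5.02 (SE 1.05), which is 32.5-fold, with an adjusted p of 0.251 by limma. Leaving out LBW 2 gave 6.31 and leaving out LBW 3 gave 4.08. The gene is also on the list of bone markers given below and among the genes the study picked from these pups, and is thus no independent sign of the pathway.

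The cyclin gene *Ccnd1*, which drives entry into the cell cycle, was at 12.19, 11.82 and 12.18 in LBW and 11.76, 11.79 and 11.75 in ABW pups. The groups did not overlap, though LBW 2 was close to the ABW pups, and the difference of 0.29 (SE 0.122; unadjusted p = 0.0498, adjusted p = 0.404 by limma) was short of 1.5-fold. The unadjusted p was 0.0755 by the methods' t-test, and by limma 0.0512 with a robust variance, 0.0617 without the dimmest genes and 0.00467 without LBW 2, where the difference was 0.42. It was over 0.05 with any other pup left out. *Mycn*, a growth-promoting transcription factor named after its values were seen, had a difference of -0.23 (SE 0.0826; unadjusted p = 0.0307, adjusted p = 0.358 by limma). The targets with the brightest probes, *Igfbp3* and *Igfbp6*, which bind insulin-like growth factors, differed by -0.06 (SE 0.111) and 0.09 (SE 0.0946) with overlapping groups.

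Of 25 genes of the primary cilium 7 had a row and 0 were called, with 1 at an unadjusted p under 0.05 by limma and 0 called by the methods' t-test. That gene, *Bbs7*, a part of the complex that carries receptors along the cilium, was at 11.55, 11.47 and 11.69 in LBW and 11.97, 11.85 and 11.98 in ABW pups. All LBW pups lay below all ABW pups. The difference of -0.37 (SE 0.0962; unadjusted p = 0.00777, adjusted p = 0.287 by limma) corresponds to 0.776-fold, short of 1.5-fold. *Dync2h1*, the motor of transport back from the ciliary tip, differed by -0.16 (SE 0.156; -0.03 without LBW 3, -0.24 without ABW 1), and *Tctn2*, of the transition zone, by 0.04 (SE 0.170).

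The relatives of the 2 genes with lower signals were read in the same way. Of 21 KCTD genes 3 had a row. *Kctd10* and *Kctd13*, adaptors of Cul3 known for degrading RhoA, differed by -0.17 (SE 0.158) and -0.24 (SE 0.121), and neither was called (0 of 2 by limma, with 0 at an unadjusted p under 0.05 and 0 by the methods' t-test). With 1 pup left out *Kctd10* lay between -0.30, without LBW 1, and -0.04, without LBW 3, and *Kctd13* between -0.35, without LBW 1 (unadjusted p = 0.0167 by limma, short of 1.5-fold), and -0.18. In *Kctd13* the values were 10.33, 9.99 and 10.01 in LBW and 10.39, 10.25 and 10.41 in ABW pups, and LBW 1 lay within the ABW values. Among genes with a patched-like domain, beside *Ptch1* and *Ptchd1*, *Npc1l1*, the intestinal cholesterol transporter, was at 5.57, 5.69 and 5.72 in LBW and 5.58, 5.57 and 6.19 in ABW pups. The groups overlapped, with ABW 3 the highest, and the difference was -0.12 (SE 0.181; adjusted p = 0.830 by limma).

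The genes whose pattern over the 6 pups was nearest to that of *Kctd21* and *Ptchd1* were found among 9659 other named genes. Of the rows, 34 have a symbol only because the study's tables of changed genes list them, *LOC683102* and *Kctd21* and *Ptchd1* themselves among them, so that the pool holds more changed genes than the table at large. Likeness was the root mean square difference of the 6 log2 signals after each gene was centred on its own mean. The nearest genes were picked for this likeness. A shared pattern and a lower signal in LBW pups therefore follow from the choice and are given as a description. For *Kctd21* the nearest were *Dnajc28*, a DnaJ-domain protein, at 0.431, *Crebl2*, a bZIP protein related to Creb, at 0.504, and *LOC683102* at 0.552. The value *Kctd21* itself would give against a flat gene is 1.13. *Dnajc28* was at 6.42, 7.38 and 7.26 in LBW and 8.70, 8.83 and 8.99 in ABW pups. Like *Kctd21*, to which it was matched, it was low in every LBW pup and lowest in LBW 1.

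For *Ptchd1* the nearest genes were closer, beside 0.822 against a flat gene. They were *Klra2*, a lectin-like receptor of natural killer cells, at 0.196, *Pparg*, the nuclear receptor that drives fat cell formation, at 0.203, and *Adrb3*, the beta-3 adrenergic receptor of adipocytes, at 0.222. *Pparg* was at 9.12, 8.86 and 8.70 in LBW and 9.26, 10.60 and 10.42 in ABW pups. *Adrb3* was at 6.40, 7.07 and 6.15 in LBW and 6.88, 8.59 and 7.57 in ABW pups. In both genes, which were picked for their likeness to *Ptchd1*, ABW 2 and ABW 3 were high and ABW 1 was near the LBW pups.

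**Figure D3:**
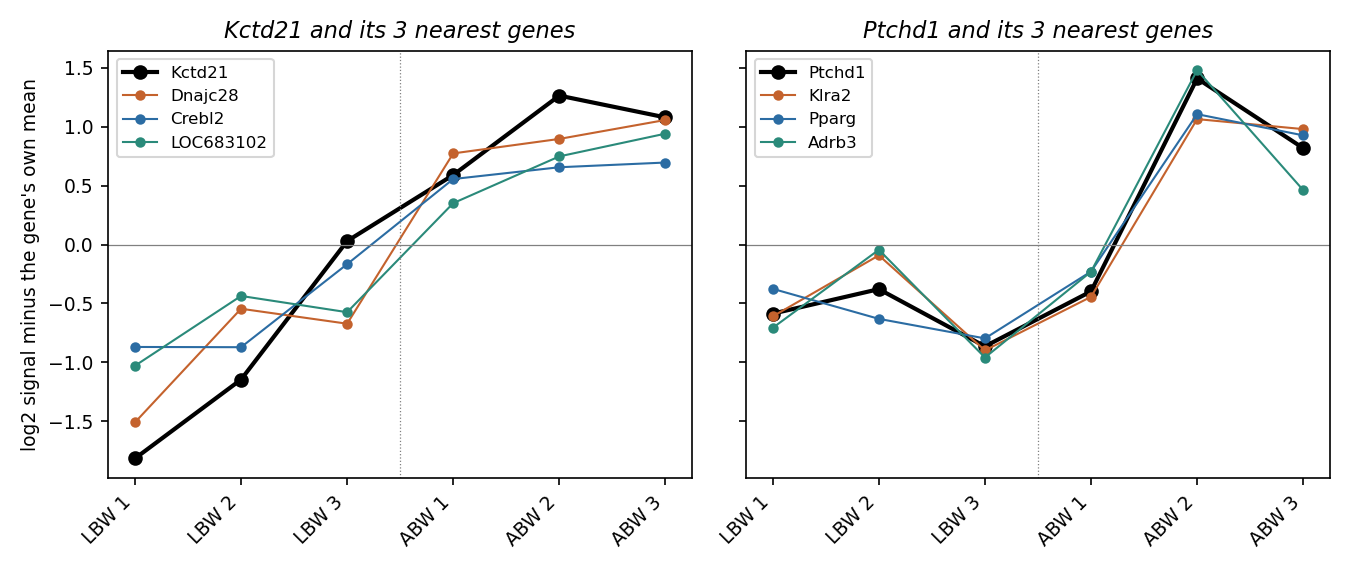
Log2 signal minus each gene's own mean (vertical axis) in the 6 pups (horizontal axis) for *Kctd21*, *Ptchd1* and the 3 genes nearest to each; lines only join the points of 1 gene, since the pups have no order. The genes beside *Ptchd1* lie within 0.196 to 0.222 of it by root mean square, with ABW 2 and ABW 3 high. Those beside *Kctd21* lie within 0.431 to 0.552 of it. All were picked for this likeness.

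Markers of other cell types moved with some of these values. In bulk muscle, fewer cells of a type and less RNA per cell cannot be told apart. Of 11 adipocyte markers 10 had a row, and *Pparg*, *Lep* and *Adrb3* were called lower in LBW pups while 0 were called higher. Of all genes 1.89% were called lower and 2.38% higher. The methods' t-test called 0 of the 10. With 1 pup left out, an alternative added after the data were seen, between 1 and 4 were called lower; *Pparg* was called each time, *Adrb3* without LBW 2 or ABW 1, and *Lep* without ABW 1. All 3 are also among the genes the study picked from these pups. The *Lep* signals were 5.91, 5.96 and 5.75 in LBW 1 to LBW 3 and 6.05, 8.09 and 8.18 in ABW 1 to ABW 3. Those of the 3 LBW pups and of ABW 1 lay under 6.21, the bound of the dimmest genes given above. They may therefore not be measured above background, and the lower *Lep* signal is only that of the deposited values. The brightest of the 10, *Fabp4*, lay between 14.72 and 14.73 in LBW and 14.80 and 14.98 in ABW pups, a difference of -0.19 (SE 0.0879; adjusted p = 0.444 by limma). The mean of the list relative to its ABW mean was -0.48, -0.48 and -1.35 in LBW 1 to LBW 3 and -0.55, 0.39 and 0.16 in ABW 1 to ABW 3. The log2 of its summed signal was 15.53, 15.55 and 15.13 in LBW and 15.54, 16.04 and 15.94 in ABW pups. ABW 1, the ABW pup with the low *Ptchd1* signal, thus had the adipocyte level of LBW 1 and LBW 2. The part of these cells in the *Ptchd1* values was not tested.

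Of 11 bone markers with a row, of 13 listed, 6 were called higher in LBW pups and 0 lower, beside 2.38% and 1.89% of all genes. Among the 6 were *Spp1*, *Ibsp*, bone sialoprotein, *Bglap*, osteocalcin, and *Runx2*, the master regulator of osteoblasts. *Bglap* differed by 3.60 (SE 1.09) and *Runx2* by 2.26 (SE 0.793), and the *Runx2* groups overlapped. *Runx2* could be named only from the study's tables of changed genes, and without it 5 of 10 bone markers were called higher. The methods' t-test called 3 of the 11, *Ibsp*, *Spp1* and *Phex*. With 1 pup left out, 10 were called higher without LBW 2, 3 without LBW 1, and 4 or 5 without any other pup. *Ibsp* was at 13.63, 9.86 and 14.19 in LBW and 7.64, 7.36 and 8.47 in ABW pups. The mean of the list relative to its ABW mean stood at 2.82, 0.47 and 3.75 for LBW 1 to LBW 3, and between -0.07 and 0.12 in the ABW pups. The log2 of its summed signal was 16.00, 15.13 and 16.52 in LBW and 15.27, 15.12 and 15.32 in ABW pups. Its brightest gene, the collagen *Col1a2*, was at 14.87, 14.94 and 15.13 in LBW and 15.19, 15.03 and 15.23 in ABW pups and was not called. The cartilage list followed the same order of pups, at 0.98, -0.03 and 1.67 in LBW 1 to LBW 3, with 2 of 9 genes called higher, *Acan*, the aggrecan core protein, and *Col10a1*, the collagen of hypertrophic cartilage. *Col10a1* too could be named only from those tables, so that its call was fixed by how it was named, and without it 1 of 8 was called by limma and 0 by the methods' t-test. The *Acan* groups overlapped, and the methods' t-test called *Col10a1* only. Without LBW 2, 6 of the 9 were called, and without any other pup *Col10a1* only. Its brightest gene *Col2a1* lay between 13.48 and 14.28 in LBW and 13.41 and 13.72 in ABW pups. *Kctd21* did not follow that order, being lowest in LBW 1 and highest, among LBW pups, in LBW 3, the pup with the highest bone and cartilage values. The part of these tissues in the *Spp1* and *Kctd21* values was not tested.

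The skin list had 5 of 10 genes with a row and 0 called (0 at an unadjusted p under 0.05 by limma, 0 by the methods' t-test). Its mean was 1.06 in ABW 2, the pup with the highest *Ptchd1* signal, and between -0.85 and -0.21 in the other 5 pups, and its brightest gene *Tp63* was at 8.96 in ABW 2 and 9.58 in ABW 3. The part of skin in the *Ptchd1* values was not tested. Of 11 Schwann cell markers 0 were called by limma, 1 had an unadjusted p under 0.05 and 0 were called by the methods' t-test. With 1 pup left out limma called *S100b* and *Egr2* lower without ABW 1, *S100b* without LBW 2 and *Egr2* without LBW 3. *Pmp22*, the brightest, lay between 14.84 and 14.94. Of 7 neuron markers with a row only *Tubb3*, a neuronal tubulin, was called, beside 4.27% of all genes called in either direction. *Tubb3* was at 9.30, 9.20 and 9.54 in LBW and 9.79, 10.08 and 9.99 in ABW pups, a difference of -0.61 (SE 0.128; adjusted p = 0.251 by limma). The methods' t-test also called *Tubb3*, and limma did not without LBW 1, LBW 2 or ABW 2. Without LBW 2 limma called another neuron marker, *Stmn2*, lower in LBW pups. The brightest of the 7, *Gap43*, lay between 11.13 and 11.46.

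**Figure D4:**
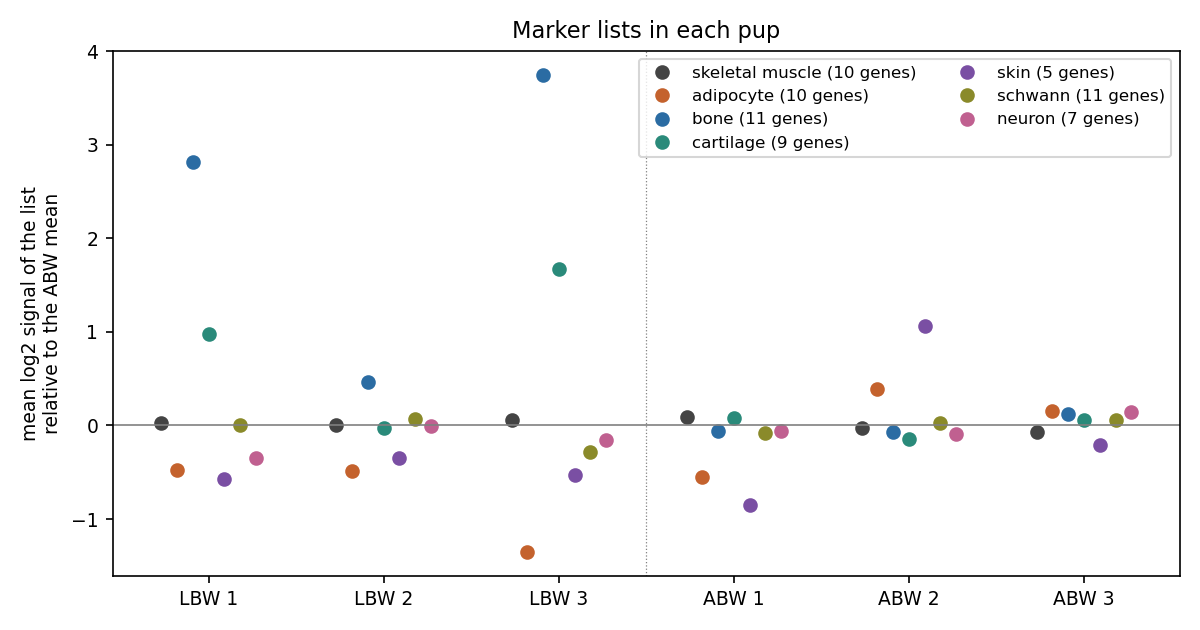
Mean log2 signal of 7 marker lists relative to each list's mean in ABW pups (vertical axis) in the 6 pups (horizontal axis); each point is 1 list in 1 pup. The skeletal muscle list stays between -0.06 and 0.09, the bone list is at 2.82 and 3.75 in LBW 1 and LBW 3, and the adipocyte list is low in the LBW pups and in ABW 1.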

How the data were processed

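Newborn skeletal muscle RNA was hybridized to 6 single-colour arrays, 1 for each of 3 LBW and 3 ABW pups. The authors deposited 1 log2 value per row and pup; RMA is named in the submitters' processing notes, with no version, background correction or scaling given in the sources used here. Tables of the study that hold its own fold changes were read for symbols only. Symbols came from the RefSeq table of GRCr8 (9747 rows) or those tables (34 rows), so that 9781 of 26419 rows were named; rows of a symbol were averaged, which left 26298 genes. LBW and ABW means were compared with limma 3.58.1 in R 4.3.3 (lmFit, eBayes, 2-sided, Benjamini-Hochberg over all genes). A gene was called at 1.5-fold or more with an unadjusted p under 0.05. The methods give the same fold and p limits without saying whether the p was adjusted or which test gave it for the arrays. The methods' t-test was run on the same values. Precision is limited by the number of arrays, and p-values measure the spread between these pups, whose litters are not given.

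The members and lists were chosen with earlier results of these data known. Genes were named by rule: all members; pathway genes called, or by role the 2 largest differences and the 2 highest levels; all KCTD and patched-like genes, apart from a result that is not reported here; for each marker list the brightest and up to 4 called; and the 3 nearest genes. The script was tested on simulated data. Alternatives were the replicate block, each pup left out, quantile normalization, median centring, leaving out the dimmest 25% of genes, intensity trend, robust variance, array weights, unaveraged rows and a fold of at least 2.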

Additional observations from a re-analysis of the deposited data

How the results depend on the processing

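Neither limma nor the alternatives called any of the 4 members not chosen for a lower signal, any KCTD gene beside *Kctd21*, or any other pathway gene as lower, and *Spp1* was the 1 pathway gene called higher in each. *Kctd21* lay between -2.46 and -1.54 and *Ptchd1* between -1.72 and -0.82 with 1 pup left out. The number of genes called over the whole table, 1123, was 583 by the methods' t-test and 334 with a fold of at least 2, which is the stricter criterion, and ran from 797 without LBW 1 to 1545 without LBW 2. Genes with an adjusted p under 0.05 ran from 0 to 124, the latter without LBW 2, and were 0 under every alternative that kept all 6 pups. The cause was not tested. *Shh* changed sign with quantile normalization (0.0039) and between -0.0718 and 0.0705 with 1 pup left out.

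With 1 pup left out, signs of differences near 0 also changed for *Gpc3* (-0.14 to 0.0087), *Cdon* (-0.25 to 0.0696; 0.0076 without ABW 3), *Grk2* (-0.0326 to 0.23), *Igfbp3* (-0.14 to 0.0179), *Tctn2* (-0.0530 to 0.18, with other values between) and *Npc1l1* (-0.22 to 0.0862); none of these was called. *Arrb1* (-0.42 to -0.21), *Csnk1a1* (0.0099 to 0.10) and *Igfbp6* (0.03 to 0.16) kept their sign and were not called. With array weights the unadjusted p by limma was 0.0282 for *Arrb1* and 0.0442 for *Numb*, whose difference was then -0.38, short of 1.5-fold. Quantile normalization and median centring moved the median difference of all genes from -0.02 to -0.01 and -0.04.

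The replicate numbers do not pair the pups: deviations of same-numbered pups correlated at 0.0875, 0.104 and 0.0552. With the number as a block 1229 genes were called, 0 after adjustment, and the 4 members gave 0 calls, with unadjusted p-values by limma of 0.107 for *Ptch1*, 0.301 for *Smo*, 0.934 for *Shh* and 0.0376 for *Sufu*. That of *Ccnd1* was 0.0721 with the block.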
